A study of Mus musculus with 12 samples.

Results

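The 21 genes described here are those listed both among the genes that differed between brachial and thoracic control motor neurons and among the genes that differed between thoracic Pbx mutant and thoracic control motor neurons. They were chosen by measured values of both contrasts, the authors' fold changes and adjusted p-values, and were found by matching gene symbols between the authors' deposited tables, which hold 64 genes for the first comparison, 130 for the second and 205 different genes over all 3 tables. The 21 genes are Adamts9, Cartpt, Crp, Cyp26b1, Dgkb, Etv1, Etv4, Kcnip4, Kitl, Klf5, Lix1, Man1a, Mme, Msn, Nos1, Npr3, Pkd2l1, Slc4a4, Smug1, Sytl2 and Tll1, called the shared genes below. They make up 32.8% of the control level table and 16.2% of the thoracic mutant table. The other 43 genes of the control level table and the other 109 of the thoracic mutant table serve for comparison.

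RNA was sequenced from mouse embryos at E12.5, from spinal motor neurons sorted by Hb9::GFP, a fluorescent reporter driven by a motor neuron gene. The thoracic mutant group carried the genotype PbxMNdelta together with the reporter, and had 3 libraries, A, B and C. A brachial mutant group of the same genotype, also of 3 libraries, enters for only 2 of the shared genes. It also enters for some unshared genes and for checks of the processing. The brachial control and thoracic control groups were control littermates that carried the reporter, with 3 libraries each. The RNA was amplified as cDNA before sequencing in all groups. The strain background of all groups was highly mixed C57BL/6. The alleles and the Cre line behind PbxMNdelta, and how the 9 pooled embryos per genotype were divided over libraries, could not be taken from the sources used here. The p-values of the model therefore measure the spread between libraries, which may be technical. Motor neurons were not checked against their markers at the thoracic level: of 8 defining markers (Mnx1, Isl1, Isl2, Chat, Slc18a3, Slc5a7, Prph and Lhx3), none is listed in the tables with thoracic libraries, and their levels there were not analysed here. Chat, Slc5a7 and Prph are listed in the brachial mutant table.

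Motor neurons are grouped along the cord into columns that innervate different targets. At limb levels the lateral motor column innervates the limb, while at thoracic levels the hypaxial motor column innervates the body wall and the preganglionic motor column innervates sympathetic ganglia. Hox transcription factors set these level identities, and Pbx proteins are homeodomain cofactors that bind DNA together with Hox proteins.

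Values, called normalized counts below, are taken as read counts divided by 1 factor per library by the authors. Every nonzero value is a whole multiple of 1 step per library, but whole reads could not be verified. Differences are on the log2(normalized count + 0.5) scale, each taken within its own table, with the standard error (SE) of a limma model fitted over all genes of that table. A negative level difference means lower in brachial controls than in thoracic controls, and a negative mutant difference means lower in thoracic mutants than in thoracic controls. Both differences use the same 3 thoracic control libraries. The genes were also chosen because they passed in both comparisons, so the values below describe them and are not tested. The authors' tables imply that at least 1.96% of the genes they tested between control levels and 0.807% of those tested in thoracic mutants had an adjusted p under 0.05.

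Of the 21 shared genes, 19 were lower in thoracic mutants than in thoracic controls and lower in brachial controls than in thoracic controls. Etv4 and Smug1 were higher in both. The median of the 21 mutant differences was -1.68, beside -0.67 over all 130 genes of that table and -0.59 over its 109 genes that are not shared. The shared genes also had lower counts in the thoracic mutant table. Their median normalized count there was 84.2, beside 209 over all 130 genes and 232 over the 109. The part of count, and of the fold limit of the control level table, in the larger median difference was not tested. The median of the 21 level differences was -1.42, beside -1.14 over all 64 genes of the control level table. Limma passed all 21 in both tables at an adjusted p under 0.05, where 94.6% of the listed thoracic mutant genes and 98.4% of the listed control level genes passed, so nothing about these genes can be read from that count. With each library centred on its median listed gene, 16 of the 21 passed for the mutant difference and 8 of the 21 for the level difference. Dgkb, Lix1, Msn, Slc4a4 and Tll1 did not pass for the mutant difference. The 8 that passed for the level difference were Cartpt, Etv4, Kitl, Klf5, Mme, Nos1, Pkd2l1 and Smug1. Passing as lower in mutants were 75.4% of the listed genes of the thoracic mutant table, and passing as lower in brachial controls 62.5% of those of the control level table. Their libraries did not overlap between groups in either table, as for 97.7% and 98.4% of the listed genes. Nearest the limits of the authors' deposited tables, Dgkb had a log2 fold change of -1.004 and Cyp26b1 of -1.03 between control levels, where the limit is 1 in size. Lix1 had an adjusted p of 0.0421 and Smug1 of 0.0359 in the thoracic mutant comparison in the authors' deposited table. Genes just outside those limits were not analysed here.

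**Figure D1:**
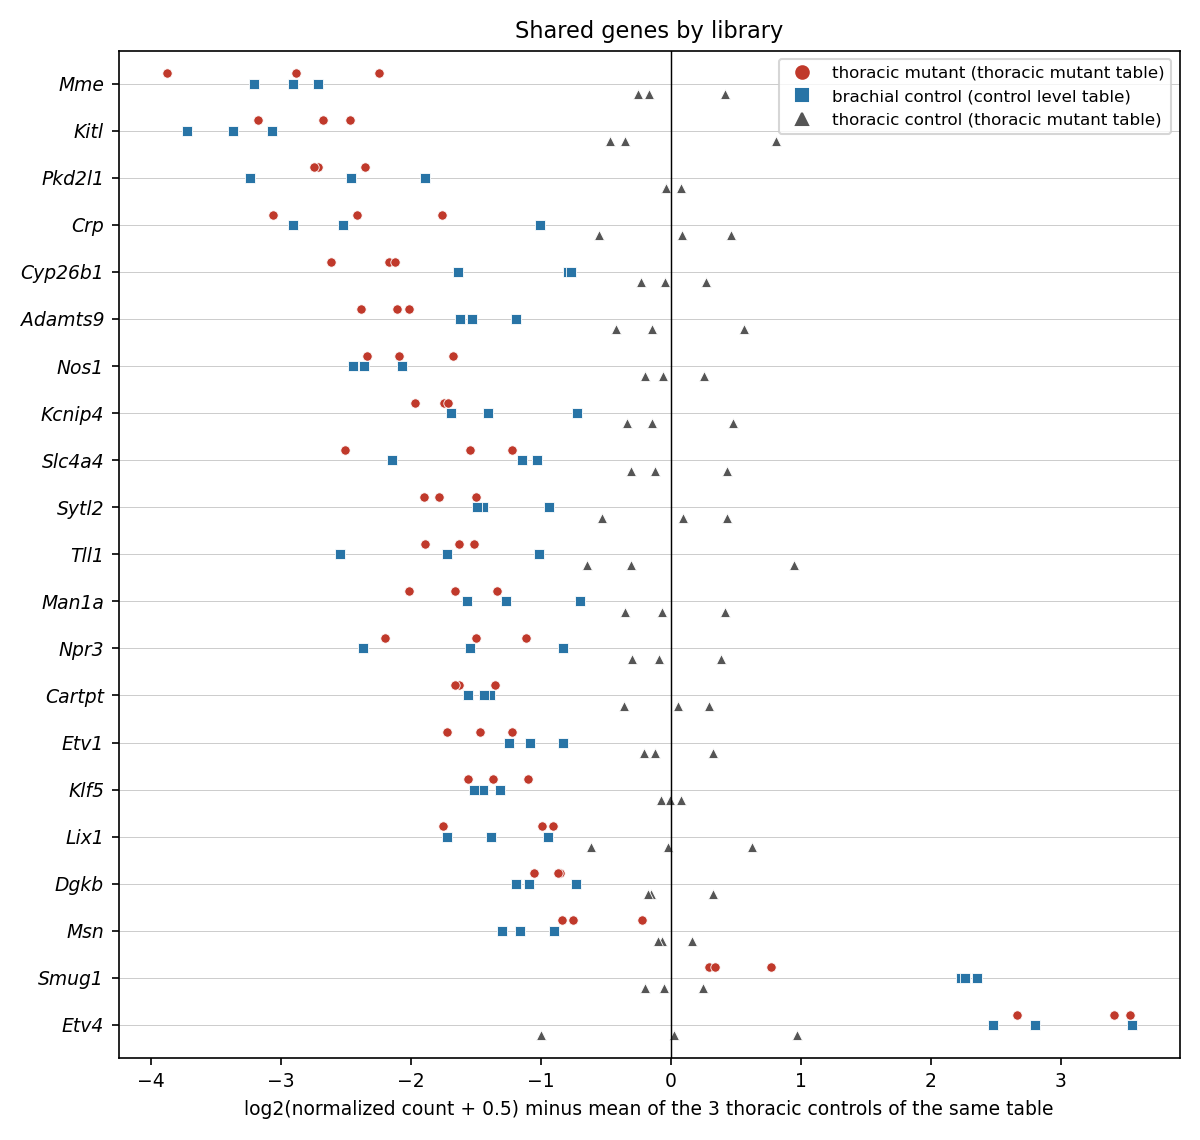
Each row is 1 of the 21 shared genes; the horizontal axis is log2(normalized count + 0.5) minus the mean of the 3 thoracic control libraries of the same table. Red circles are thoracic mutant libraries, blue squares brachial control libraries and grey triangles thoracic control libraries; 19 genes lie left of 0 and Smug1 and Etv4 lie right of it in both thoracic mutants and brachial controls.

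In the reference annotation the 21 genes lie on 15 chromosomes. Dgkb, on mouse chromosome 12, and Etv1 are neighbouring protein-coding genes, and both are shared. Smug1 lies next to Hoxc4 on chromosome 15, at the end of the HoxC cluster, and Mme lies next to Gpr149 on chromosome 3. Hoxc4 and Gpr149 stand in the control level table and not in the thoracic mutant table. Hoxc4 averaged 1646 ± 88.4 in brachial controls and 732 ± 13.1 in thoracic controls (SD, n = 3 each), and Gpr149 averaged 24.3 ± 5.55 in brachial controls and 106 ± 14.9 in thoracic controls. Both differ between levels in the same direction as the shared gene beside them. Exons of Adamts9, Kcnip4, Man1a, Msn, Nos1 and Npr3 overlap exons of a gene on the other strand. Whether the authors' counting used strand is not given, so the counts of these 6 genes are uncertain for that reason.

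Promoters, taken as 250 bases before to 50 after a transcription start, were found in the RefSeq table (GRCm38.p6) for 17 of the 21 shared genes, all but Etv4, Klf5, Pkd2l1 and Sytl2, with 22 starts in all. They were searched on both strands for TGATNNAT, letters that Pbx and Hox proteins bind together. These letters stood in 2 of the 22 promoters, or 9.09%, against 8.85% of all 32851 promoters in the table. TGACAG, a Meis type motif, stood in 22.7% against 19.2%, TTTATNG, a posterior Hox type motif, in 9.09% against 10.9%, and TGATTGAC in 0 against 0.77%. TGATTGAC matches TGATNNAT in all letters but the last, and its last 4 letters can begin TGACAG. In the 42 promoters of the unshared control level genes, TGATNNAT stood in 14.3%, TGACAG in 23.8%, TTTATNG in 19% and TGATTGAC in 0. With 22 and 42 promoters, 1 promoter moves a share by several percentage points, and the shares were not compared by a test. A match is a description of the letters and not a binding site. The 2 promoters with TGATNNAT are shown because they are the only 2 of the set with the joint Pbx and Hox letters, which stand in capitals (the Etv1 promoter holds them on the opposite strand). The Kcnip4 promoter is chr5:49285610-49285909 on the minus strand and the Etv1 promoter is chr12:38783461-38783760 on the plus strand, both in GRCm38.p6 and written along the strand of the gene.
Kcnip4: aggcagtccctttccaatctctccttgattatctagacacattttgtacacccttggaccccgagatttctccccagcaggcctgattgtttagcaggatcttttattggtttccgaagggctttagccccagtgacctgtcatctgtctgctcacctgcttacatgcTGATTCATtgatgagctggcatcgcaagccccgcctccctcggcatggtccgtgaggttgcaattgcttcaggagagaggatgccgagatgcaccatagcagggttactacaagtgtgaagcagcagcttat
Etv1: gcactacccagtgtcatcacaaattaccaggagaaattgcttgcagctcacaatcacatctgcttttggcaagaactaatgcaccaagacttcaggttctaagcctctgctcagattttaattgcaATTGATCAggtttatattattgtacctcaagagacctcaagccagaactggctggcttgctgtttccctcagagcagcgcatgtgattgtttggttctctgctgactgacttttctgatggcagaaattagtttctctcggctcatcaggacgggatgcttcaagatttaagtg

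Among transcription factors of motor columns and pools, Etv1 was lower and Etv4 higher in thoracic mutants. Etv1, an Ets family factor found in hypaxial motor neurons, read 52.4, 43.9 and 36.8 in thoracic mutant libraries A, B and C, against 153, 106 and 112 in thoracic control libraries. The mutant libraries were all below the lowest control, with a log2 difference of -1.47 (SE 0.21). Between control levels Etv1 averaged 51.3 ± 7.63 in brachial controls and 108 ± 22.4 in thoracic controls (SD, n = 3 each), a difference of -1.05 (SE 0.21).

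Etv4, an Ets family factor of limb motor pools, read 30.5, 51.6 and 56.2 in thoracic mutant libraries A, B and C, against 1.95, 9.08 and 4.49 in thoracic control libraries. All 3 mutant libraries exceeded every control, and the control values rest on 16 reads over 3 libraries, where a normalized count moves in steps and each step is taken as 1 read. Between control levels it read 23.6, 49.97 and 29.7 in brachial control libraries A, B and C, against 1.70, 7.87 and 3.90 in thoracic control libraries. The mutant and level differences of Etv4 were 3.20 (SE 0.49) and 2.94 (SE 0.54), and their size depends on the pseudocount: with pseudocounts of 0.1 and 2 the mutant difference was 3.34 and 2.83, and the level difference 3.09 and 2.54. Of the list of 12 Ets factors and FGF feedback genes, 4 were listed in the thoracic mutant table. Of these, Etv4 and Spry4 (1.54, SE 0.22) rose and Etv1 and Spry2 (-0.59, SE 0.13) fell. The Sprouty genes, which encode feedback inhibitors of receptor tyrosine kinase signalling, are not listed between control levels.

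Klf5, a zinc finger transcription factor, read 19.2, 21.97 and 26.6 in thoracic mutant libraries A, B and C, against 60.6, 54.5 and 57.3 in thoracic control libraries. The mutant libraries lay below all controls with little spread within either group. The mutant difference was -1.34 (SE 0.16) and the level difference -1.42 (SE 0.15). The standard errors of the authors' own tests of Klf5 were larger, at 0.34 and 0.37, so these SEs may overstate the precision.

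Of the lists for the thoracic columns, the hypaxial one holds the shared genes Kitl and Etv1, and the preganglionic one holds Nos1. Kitl, which encodes the ligand of the Kit receptor and is expressed in hypaxial motor neurons, read 109, 76.9 and 126 in thoracic mutant libraries A, B and C, against 506, 549 and 1228 in thoracic control libraries. Control C held about as much Kitl as A and B together, and all mutant libraries lay below all controls. Its mutant difference was -2.77 (SE 0.36), and -2.37 without thoracic control C. Between control levels Kitl read 58.4, 72.0 and 45.6 in brachial control libraries A, B and C, against 439.9, 475 and 1066 in thoracic control libraries, a difference of -3.38 (SE 0.39) that became -2.98 without thoracic control C. Of the 5 genes in the hypaxial list, Kitl, Etv1 and Ebf2 (-0.62, SE 0.14) passed as lower in thoracic mutants, where 75.4% of the listed genes did, Ebf1 (-0.29, SE 0.14) did not pass, and Ebf3 is not listed. Kitl and Etv1 are the 2 of these listed between control levels. In these bulk libraries, fewer cells of a column and less RNA per cell cannot be told apart.

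Nos1, the neuronal nitric oxide synthase found in preganglionic motor neurons, read 170.1, 108 and 128 in thoracic mutant libraries A, B and C, against 523, 475 and 649 in thoracic control libraries. Mutants were 4.06-fold lower in the mean, with a log2 difference of -2.03 (SE 0.21). Between control levels it read 112, 91.8 and 86.7 in brachial control libraries A, B and C, against 454, 412 and 564 in thoracic control libraries, a difference of -2.29 (SE 0.20). Of the 3 preganglionic genes of the list, Nos1 and Zeb2 (-0.63, SE 0.17) passed as lower in thoracic mutants, where 75.4% of the listed genes did. Bmp5 is not listed.

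Peptide and gas signalling was the longest list, at 22 genes, and 4 of them were shared. Shorter lists held 2 of 5 (hypaxial), 1 of 3 (preganglionic) and 3 of 16 (limb motor neurons), so the count gives no ranking. In the thoracic mutant table the 4 listed genes, Nos1, Npr3, Mme and Cartpt, all fell, and the same 4 passed as lower in brachial controls. Of all 130 genes of that table, 103 were lower in mutants, so a fall is the common direction there. Tacr3, a neurokinin receptor, is the other listed gene of this group between control levels, at 2.77 (SE 0.27), and is absent from the thoracic mutant table.

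Mme, which encodes the peptide-degrading enzyme neprilysin, read 38.4, 12.1 and 24.5 in thoracic mutant libraries A, B and C, against 164, 154 and 246 in thoracic control libraries. Mutants were 7.53-fold lower, and mutant B was the lowest. Between control levels Mme averaged 20.6 ± 3.56 in brachial controls and 163 ± 43.8 in thoracic controls (SD, n = 3 each). The 2 differences were -3.00 (SE 0.41) for mutants and -2.94 (SE 0.25) for level, and -3.00 was the lowest mutant difference of the table. Of the 10 largest falls in thoracic mutants, 6 were shared genes, which make up 16.2% of the thoracic mutant table. The shared genes were chosen by these same values, so nothing is read from this count.

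Cartpt, the precursor of a neuropeptide, read 27.9, 23.1 and 22.5 in thoracic mutant libraries A, B and C, against 75.3, 56.3 and 88.7 in thoracic control libraries. The groups did not overlap, and brachial controls averaged 22.4 ± 1.38 against 63.8 ± 14.2 in thoracic controls of the control level table (SD, n = 3 each). The differences of Cartpt were -1.55 (SE 0.20) for mutants and -1.46 (SE 0.21) for level. Npr3, the clearance receptor of natriuretic peptides, read 21.8, 13.2 and 28.6 in thoracic mutant libraries A, B and C, against 58.6, 81.7 and 50.6 in thoracic control libraries. Its mutant difference was -1.60 (SE 0.31) and its level difference -1.58 (SE 0.42). Thoracic control B was the highest Npr3 library, unlike most shared genes.

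Cyp26b1, which degrades retinoic acid, read 43.6, 31.9 and 45.0 in thoracic mutant libraries A, B and C, against 238, 168 and 191 in thoracic control libraries. Thoracic mutants were 4.96-fold lower than thoracic controls, while brachial controls were 2.04-fold lower. Between control levels it averaged 84.6 ± 26.0 in brachial controls and 173 ± 31.4 in thoracic controls (SD, n = 3 each). The mutant difference of -2.30 (SE 0.20) stood beside a level difference of -1.06 (SE 0.30). Of the 18 retinoid genes of the list, Cyp26b1 and Rxra (-0.77, SE 0.19) were lower in thoracic mutants, where 75.4% of the listed genes passed as lower. Aldh1a2, which makes retinoic acid, and Dhrs3, which reduces retinal, were higher in brachial controls by 6.97 (SE 0.78) and 1.67 (SE 0.25) and are absent from the thoracic mutant table.

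Channel and transporter genes among the 21 were Pkd2l1, Kcnip4 and Slc4a4. Pkd2l1, a cation channel known from neurons that contact the cerebrospinal fluid, read 7.85, 7.69 and 10.2 in thoracic mutant libraries A, B and C, against 52.8, 57.2 and 52.8 in thoracic control libraries. Both groups had little spread, and mutants were 6.32-fold lower, with a log2 difference of -2.60 (SE 0.16). Between control levels it read 12.4, 8.13 and 4.56 in brachial control libraries A, B and C, against 45.9, 49.6 and 45.9 in thoracic control libraries, where the brachial values rest on 22 reads over 3 libraries if 1 step is 1 read. Of the other 4 markers of those neurons, Pkd1l2, Gata2, Gata3 and Myo3b, none is listed in any table, so the part of such cells was not tested.

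Kcnip4, which binds voltage-gated potassium channels, read 87.3, 74.7 and 88.9 in thoracic mutant libraries A, B and C, against 233, 265 and 408 in thoracic control libraries. The 3 mutant libraries lay within a narrow range below all controls, with a difference of -1.81 (SE 0.23). The level difference was -1.27 (SE 0.34). Of the 20 genes of the list of channels and channel subunits, which also holds the muscarinic receptor gene Chrm2, 6 were listed in the thoracic mutant table. All 6 passed as lower, in a table where 75.4% of the listed genes did, with Kcnb2 (-0.47, SE 0.14), Cacna1e (-1.05, SE 0.22), Cacna2d1 (-0.54, SE 0.14) and Chrm2 (-0.85, SE 0.26) besides Kcnip4 and Pkd2l1. Kcnip4 and Pkd2l1 are the only 2 of the list that also stand in the control level table.

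Slc4a4, a sodium and bicarbonate cotransporter, read 40.1, 50.5 and 20.4 in thoracic mutant libraries A, B and C, against 108, 95.4 and 159.5 in thoracic control libraries. Mutant C was the lowest and control C the highest library. Its differences were -1.76 (SE 0.35) for mutants and -1.44 (SE 0.37) for level.

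Of 3 further shared genes for secreted proteins, besides Kitl and Cartpt, 2 encode proteases and 1 a pentraxin. Adamts9, a secreted metalloprotease, read 74.2, 57.1 and 69.5 in thoracic mutant libraries A, B and C, against 272, 224 and 445 in thoracic control libraries. Mutants were 4.69-fold lower and brachial controls 2.83-fold lower than thoracic controls, with log2 differences of -2.17 (SE 0.27) and -1.45 (SE 0.30). Tll1, a metalloprotease of the tolloid family, read 24.4, 18.7 and 22.5 in thoracic mutant libraries A, B and C, against 45.0, 57.2 and 137 in thoracic control libraries. Control C was the highest library by far, and the mutant difference of -1.68 (SE 0.39) became -1.20 without it. The level difference of -1.76 (SE 0.56) became -1.28, and without brachial control A it did not pass (limma adjusted p = 0.0609). Crp, which encodes the pentraxin C-reactive protein, read 13.1, 20.9 and 8.17 in thoracic mutant libraries A, B and C, against 48.9, 76.3 and 98.9 in thoracic control libraries. All its mutant libraries lay below its controls, with a difference of -2.41 (SE 0.38). Its brachial controls were spread widely, at 7.87, 10.5 and 30.8, and its level difference was -2.14 (SE 0.55).

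The remaining 5 genes that were lower in mutants have varied roles. Man1a, a Golgi mannosidase, read 113, 70.3 and 89.9 in thoracic mutant libraries A, B and C, against 273, 223 and 382 in thoracic control libraries. Its differences were -1.67 (SE 0.25) for mutants and -1.18 (SE 0.31) for level, with control C the highest library. Sytl2, a vesicle protein that binds Rab27, read 26.2, 19.8 and 21.5 in thoracic mutant libraries A, B and C, against 51.8, 79.9 and 101 in thoracic control libraries. The mutant libraries lay close together, and its differences were -1.72 (SE 0.26) for mutants and -1.29 (SE 0.30) for level. Lix1, named for limb expression in chick, read 37.5, 21.97 and 39.9 in thoracic mutant libraries A, B and C, against 116, 49.0 and 74.1 in thoracic control libraries. Control A was the highest Lix1 library and control B lay near mutant C, and the differences were -1.22 (SE 0.36) for mutants and -1.35 (SE 0.37) for level.

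Dgkb, a diacylglycerol kinase, read 247, 244 and 215 in thoracic mutant libraries A, B and C, against 401, 396 and 558 in thoracic control libraries. Its differences were -0.92 (SE 0.18) for mutants and -0.9995 (SE 0.22) for level. Msn, which encodes moesin, a link between actin and the membrane, read 302, 319.7 and 464 in thoracic mutant libraries A, B and C, against 515, 504 and 604 in thoracic control libraries. Its differences were -0.60 (SE 0.20) for mutants and -1.12 (SE 0.18) for level. Dgkb and Msn had the smallest falls in mutants of the 19 genes, and mutant C was the mutant library nearest to the controls for Msn. With each library centred on its median listed gene, the Msn difference in mutants turned to 0.11 and did not pass. The Dgkb differences were then -0.21 for mutants (limma adjusted p = 0.467) and -0.26 for level (limma adjusted p = 0.406). Msn also did not pass in mutants without thoracic mutant A (limma adjusted p = 0.0824), without thoracic mutant B (limma adjusted p = 0.0695) or without thoracic control C (limma adjusted p = 0.0677). Mutant B was the lowest mutant library in 12 of the 19 genes.

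Smug1, a DNA repair glycosylase, read 832, 1154 and 856 in thoracic mutant libraries A, B and C, against 589, 652 and 804 in thoracic control libraries. The mutant libraries lay above the controls by a small margin, with a difference of 0.47 (SE 0.19). It did not pass when any library but thoracic control C was left out, with limma adjusted p from 0.0584 to 0.145 over those 5 fits. Between control levels it read 2756, 2822 and 3001 in brachial control libraries A, B and C, against 512, 565 and 699 in thoracic control libraries, and brachial controls were 4.83-fold higher, a difference of 2.28 (SE 0.17). Smug1 thus had the widest gap between its 2 differences among the shared genes.

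**Figure D2:**
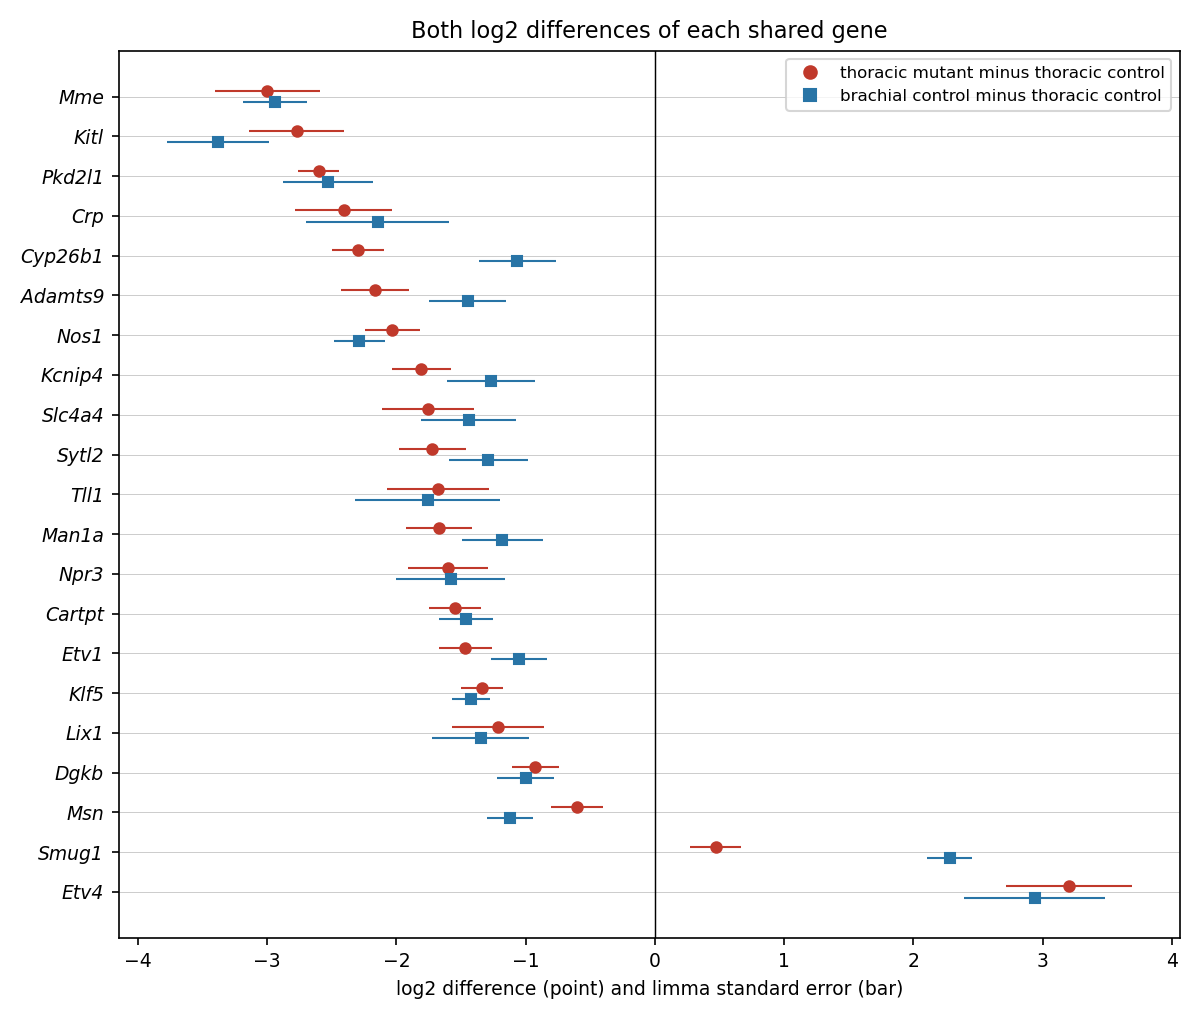
For each shared gene, the red circle is the log2 difference of thoracic mutants minus thoracic controls and the blue square that of brachial controls minus thoracic controls, with bars of 1 limma standard error. The 2 points of Smug1 (0.47 and 2.28) and of Cyp26b1 (-2.30 and -1.06) are far apart, and those of Pkd2l1 (-2.60 and -2.53) and Npr3 (-1.60 and -1.58) are close.

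Thoracic mutants were also set beside brachial controls. The shared thoracic control libraries differed between the 2 tables by a factor of 1.15 each, and the brachial control values were multiplied by that factor. The tables were normalized separately by the authors, so these levels carry that limit and no test was made. Thoracic mutant and brachial control libraries overlapped for 15 of the 21 genes and did not overlap for 6, or 28.6% of the same 21 genes. No other gene stands in both tables, so this share has no background over other genes and nothing is read from it. For Cyp26b1 the levels on the scale of the thoracic mutant table were 40.1 ± 7.21 in thoracic mutants and 97.5 ± 30.0 in brachial controls (SD, n = 3 each). For Adamts9 they were 66.9 ± 8.804 in thoracic mutants and 111 ± 18.1 in brachial controls, and for Kcnip4 83.6 ± 7.77 in thoracic mutants and 126 ± 45.9 in brachial controls. Mutants thus lay below brachial controls for these 3 genes, and also for Sytl2, at 22.5 ± 3.32 in thoracic mutants and 30.8 ± 6.995 in brachial controls. For Kcnip4 the highest mutant was 88.9 and the lowest brachial control 90.6, or 78.7 before the factor. For Sytl2 these values were 26.2, 26.3 and 22.8. Without the factor the libraries of both genes would overlap, so the order for Kcnip4 and Sytl2 rests on it. For Msn the mutants lay above, at 362 ± 88.9 in thoracic mutants and 249.9 ± 35.9 in brachial controls. For Smug1 they lay far below, at 947 ± 179 in thoracic mutants and 3294 ± 146 in brachial controls, beside 682 ± 111 in thoracic controls of the same table. The thoracic control libraries enter this comparison through the scaling factor and through the choice of the genes. Each gene was chosen because both groups differed from the same thoracic controls. That choice set no condition on direction. The shared controls enter both differences, which favours the same direction and overlap.

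The level differences of the 21 shared genes were then set against the other 43 genes of the control level table. Among the 40 genes lower in brachial controls, 19 were shared, or 47.5%, and among the 24 higher in brachial controls 2 were, or 8.33%. Since 103 of 130 genes in the thoracic mutant table were lower in mutants, a list of falls is the larger one to share with, and the 2 shares were not compared by a test. Among genes lower in brachial controls, the median level difference was -1.44 for the 19 shared genes and -1.47 for the 21 others. The median normalized count of the shared genes in the control level table was 79.5, beside 83.1 over all 64 genes.

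The 43 genes include 10 Hox genes, none of which stands in the thoracic mutant table. Hoxc10, Hoxa10 and Hoxd9, with level differences of -7.53 (SE 0.76), -5.92 (SE 1.02) and -5.34 (SE 1.15), were lower in brachial controls by more than any shared gene, and their sizes depend on the pseudocount because each was at 0 in 1 brachial control library. Hoxa9 (-2.02, SE 0.15) and Hoxc9 (-1.07, SE 0.18) were also lower, as was Gpr149 (-2.11, SE 0.23), an orphan receptor gene. Hoxc6 (1.31, SE 0.14), Hoxc5 (1.21, SE 0.18), Hoxc4 (1.17, SE 0.14), Hoxa2 (1.09, SE 0.18) and Hoxb8 (1.06, SE 0.22) were higher in brachial controls. The largest differences among the other unshared genes higher in brachial controls were those of Aldh1a2, Runx1 (3.19, SE 0.78), Tacr3, Dio3 (2.70, SE 0.26) and Inhba (2.16, SE 0.33). These include Aldh1a2 and Runx1 of the limb motor neuron list, of which only Etv4, Etv1 and Npr3 are shared. Values of the 43 genes in thoracic mutants were not analysed here, so they are not shown to be unchanged there.

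**Figure D3:**
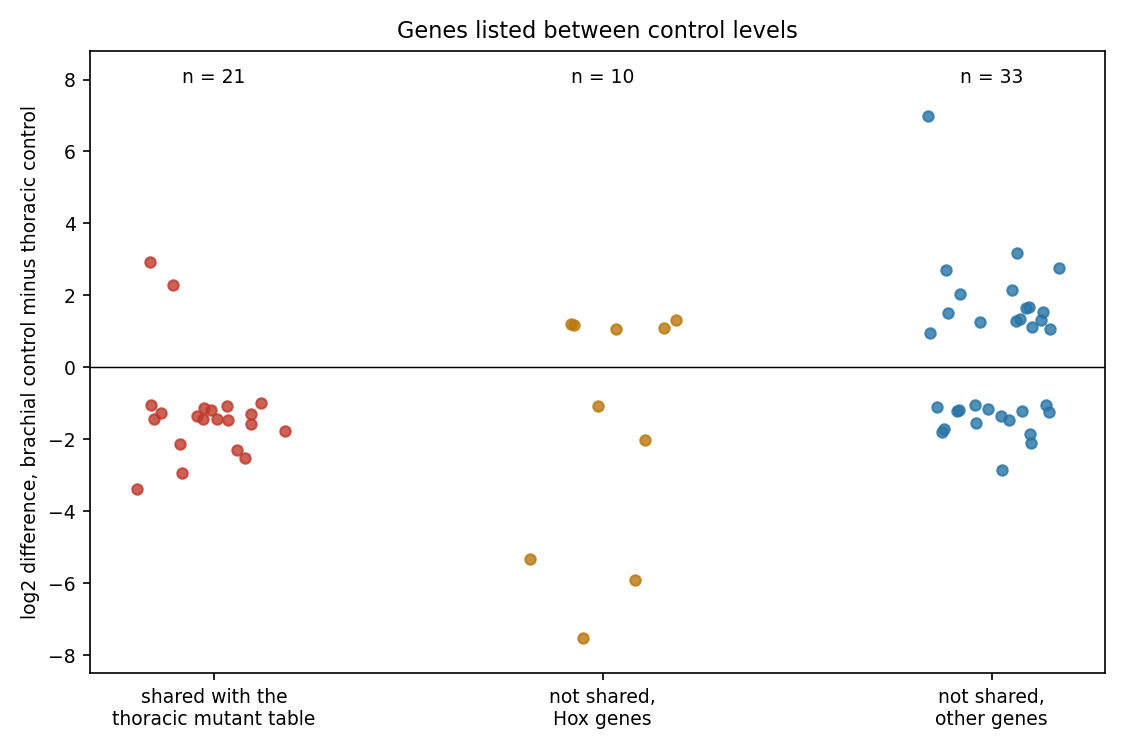
The vertical axis is the log2 difference of brachial controls minus thoracic controls for each of the 64 genes of the control level table; points are genes. The 21 shared genes lie between -3.38 and 2.94 with 19 of them below 0, the 10 Hox genes split into 5 above and 5 below 0, and the other 33 genes split into 17 above and 16 below.

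The 3 thoracic control libraries were not alike for these genes. Library C was the highest of the 3 for 13 of the 19 shared genes that were lower in brachial controls, and its median log2 deviation from the mean of the 3 was 0.33. For the 21 other genes lower in brachial controls, library C was the lowest for 13 and its median deviation was -0.22. Tll1 in library C was 2.69 times the mean of A and B, Kitl 2.33 times, Adamts9 1.79 times and Kcnip4 1.64 times. Etv1 was at 0.87 times, Lix1 at 0.90 times, Npr3 at 0.72 times, Pkd2l1 at 0.96 times and Klf5 at 0.996 times. The hypaxial genes Kitl and Etv1 thus differed in this respect. The unshared Hox genes Hoxd9 and Hoxa10 were at 0.47 and 0.50 times, and Aldh1a2 at 0.13 times. In the thoracic mutant table, library C was also the highest control for 47 of the 84 unshared genes that were lower in mutants, with a median deviation of 0.08. Without library C the median of the shared genes was -1.53 for the mutant difference and -1.22 for the level difference. Its part in which genes entered both tables was not tested.

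**Figure D4:**
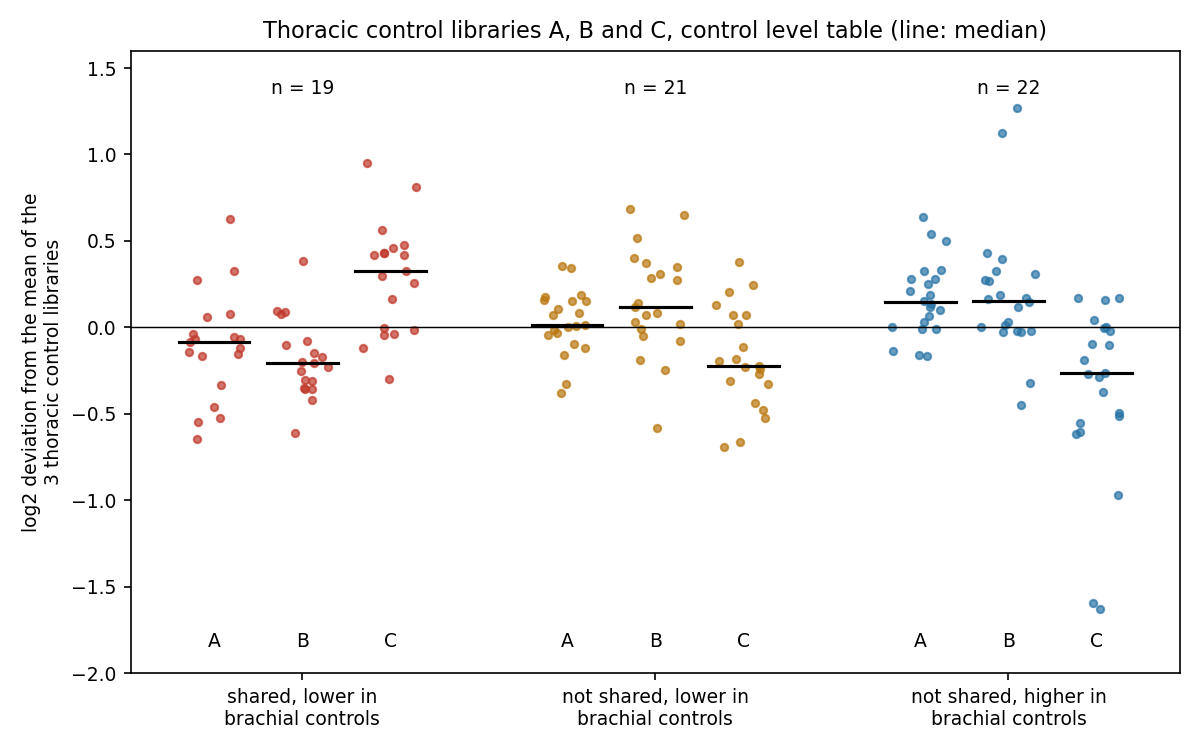
The vertical axis is the log2 deviation of each thoracic control library (A, B, C) from the mean of the 3, in the control level table; points are genes and lines are medians. Library C has a median of 0.33 for the 19 shared genes lower in brachial controls, of -0.22 for the 21 unshared genes lower there and of -0.27 for the 22 unshared genes higher there.

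Brachial mutants were not used to choose the genes, although the brachial control libraries were. Of the 21 genes, Cyp26b1 and Kcnip4 are listed in the brachial mutant table. Both passed as lower in brachial mutants, where 3 of the 8 motor neuron markers were also listed and lower: Chat (-1.54, SE 0.25), which makes acetylcholine, Slc5a7 (-0.59, SE 0.21), which takes up choline, and Prph (-0.69, SE 0.19), an intermediate filament. The part of these falls in those of Cyp26b1 and Kcnip4 was not tested. Cyp26b1 read 8.60, 20.5 and 6.01 in brachial mutant libraries A, B and C, against 89.1, 49.1 and 90.6 in brachial control libraries, a difference of -2.78 (SE 0.43) with a limma adjusted p of 0.00102. Kcnip4 read 50.7, 31.6 and 34.1 in brachial mutant libraries A, B and C, against 70.9, 139 and 86.5 in brachial control libraries, a difference of -1.31 (SE 0.28) with a limma adjusted p of 0.00438, which was 0.105 with each library centred on its median listed gene. All 3 mutant libraries lay below all 3 controls for each gene. Among the 62 genes listed there, 98.4% passed limma, 82.3% passed as lower in mutants and 96.8% did not overlap, while at least 0.523% of the genes the authors tested had an adjusted p under 0.05 of their own. Passing is thus the rule there, and the authors listed these genes for passing on the same libraries, so the p-values are not independent evidence. In the authors' deposited table the log2 fold changes of Cyp26b1 and Kcnip4 in brachial mutants were -0.53 and -0.42, smaller in size than the library values give. Their scale in that table is not known here, and the values above are taken from the libraries. In the thoracic mutant table the differences of the same genes were -2.30 (SE 0.20) and -1.81 (SE 0.23). The difference between the effects at the 2 levels was not tested here, since the tables were normalized separately. Brachial values in mutants of the other 19 shared genes were not analysed here.

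**Figure D5:**
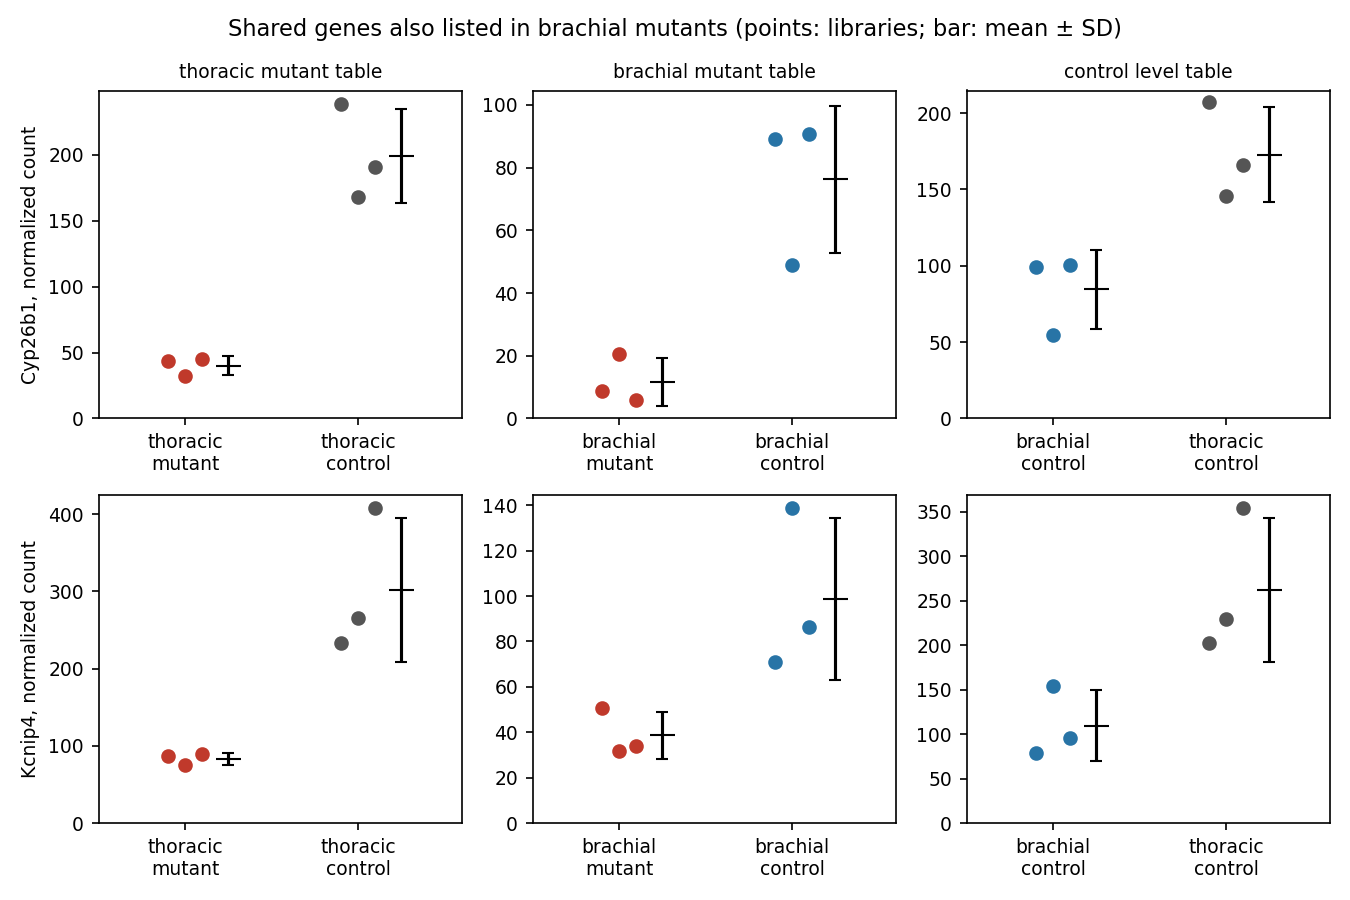
Normalized counts of Cyp26b1 (top) and Kcnip4 (bottom) in the thoracic mutant, brachial mutant and control level tables, with points for libraries and a bar for the mean ± SD (n = 3 per group); each panel has its own linear axis from 0. In all 6 panels the libraries of the 2 groups do not overlap, and the group on the left is lower.

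The remaining gene lists held 1 shared gene or none. Of 17 secreted ligands, 5 were listed in the thoracic mutant table, where 75.4% of all listed genes passed as lower. Bmp4 (4.45, SE 0.30) rose there, and Kitl, Cxcl12 (-2.32, SE 0.49), Bmp7 (-1.71, SE 0.33) and 1 more fell. Bmp4 rested on thoracic controls of 0.977, 1.82 and 1.123 normalized counts. Between control levels the list gave Kitl, Fgf10 (-1.86, SE 0.33), Inhba and Igf1 (2.04, SE 0.25), so Kitl is the only ligand of the list in both tables. Of 6 median motor column genes, Mecom (-0.58, SE 0.17) and Ebf2 were lower in thoracic mutants, beside the same 75.4%, and none is listed between control levels. Mecom (-0.82, SE 0.18) and Ebf2 were also lower in brachial mutants, where 82.3% of the listed genes passed as lower. Of 9 Hox cofactor genes, Pbx3 was lower in thoracic mutants (-0.59, SE 0.16) and in brachial mutants (-0.65, SE 0.15). Which Pbx genes were deleted could not be taken from the sources used here.

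Few markers of other cells are listed in the thoracic mutant table, where 103 of all 130 genes were lower in mutants. Of 11 mesenchyme and muscle markers, Postn (-2.12, SE 0.28) and Col2a1 (-1.08, SE 0.29) were listed and lower in mutants. Of 12 progenitor and glial markers, Nes (-0.47, SE 0.16) was listed and lower. None of 8 markers of dorsal root ganglion and neural crest and none of 8 of blood and endothelium is listed in any table. Of 17 spinal interneuron markers, Evx2 (-1.18, SE 0.32) is listed, between control levels. The summed levels of these lists were not analysed here since most members are not listed, and the part of such cells in the differences of the shared genes was not tested.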

How the data were processed

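RNA sequencing of sorted motor neurons gave 12 libraries in 4 groups of 3. The submitters' processing notes name the tools DESeq2 1.12.3, HTSeq 0.6.1p1, Picard 1.88 and Bowtie 1.0.0, with builds mm9 and NCBIM37; their settings, and whether strand was used, could not be taken from the sources used here. The per-library values deposited by the authors, called CPM in the sheet titles, are a normalized signal: every nonzero value is a whole multiple of 1 step per library within a tolerance of 1e-06. The log2 fold changes, their standard errors and test scores, and the p-values and adjusted p-values are the authors' deposited results of their own test. Library totals were not analysed here. If 1 step is 1 read, the listed genes held 14181 to 17457 reads per library between control levels, 50690 to 81370 in the thoracic mutant table and 39381 to 52090 in the brachial one, which limits the precision of low genes.

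The planned test assumed CPM and was kept for this unit: limma 3.58.1 in R 4.3.3 on log2(value + 0.5), with 2 groups per table, no filter on low values and Benjamini-Hochberg adjustment over the table at a threshold of 0.05. The fit was tested on simulated data. The members, the gene lists and the tests were chosen with earlier results of these data known. All shared genes are named, and of the other control level genes the Hox genes, the 5 largest differences in each direction without predicted genes, and up to 4 per list by size, or more where a list is given in full. Replicates differed by more than sampling noise (chi-square per degree of freedom 3.81 to 19.1; this covers counting error only). Gene order came from GENCODE on GRCm38, another build than the authors', so gene coordinates are not given. Tables and plots were made with matplotlib 3.10.9, scipy 1.17.1, pandas 2.3.3 and numpy 2.4.6 in Python 3.11.15. As alternatives, each library was left out in turn or centred on its median listed gene, the letter was added as a replicate block, eBayes was run with an intensity trend, pseudocounts were set to 2 and to 0.1, and genes with a mean under 1 were dropped.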

Additional observations from a re-analysis of the deposited data

How the results depend on the processing

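With each library centred on its median listed gene, 40 genes passed between control levels (24 higher and 16 lower, against 23 and 40 without centring), 52 in thoracic mutants (27 higher and 25 lower, against 25 and 98) and 20 in brachial mutants (13 higher and 7 lower, against 10 and 51). The median of the shared genes was then -0.69 for level and -0.97 for mutants. Centring moves the median listed difference itself, from -1.14 to -0.40, from -0.67 to 0.04 and from -0.62 to 0.07. Of the 44 differences of shared genes, 38 moved by more than 1 SD under it and Msn in thoracic mutants turned to 0.11, while 16 of 21 passed in thoracic mutants, 8 of 21 between control levels and 1 of 2 in brachial mutants. Leaving out 1 library gave 61 to 64 passing genes between control levels, 100 to 114 in thoracic mutants and 40 to 58 in brachial mutants, the 40 without brachial control B, the cause of which was not tested. The median of the shared genes ran from -1.55 to -1.21 for level and from -1.84 to -1.53 for mutants. None of the 264 differences of single shared genes without 1 library changed sign or moved by more than 1 SD. Calls were lost all the same: in thoracic mutants Msn without any of 3 libraries (limma adjusted p 0.0677 to 0.0824) and Smug1 without any of 5 (0.0584 to 0.145), and between control levels Tll1 without brachial control A (0.0609). Under the other settings 1 of 44 moved so, Pkd2l1 in thoracic mutants, at -2.42 with a pseudocount of 2. Same-lettered libraries did not deviate together in every pair (correlations over genes from -0.03 to 0.29, from -0.13 to 0.31 and from -0.49 to 0.10). Libraries of different letters gave -0.23 to 0.07, -0.28 to 0.26 and -0.15 to 0.41. Between control levels the A pair (0.29) and the C pair (0.16) exceeded every pair of different letters. In the thoracic mutant comparison the B pair (0.31) did. Pairing was thus not settled in either comparison. The letters were not taken as pairs in the main fit. With the replicate block 64, 118 and 60 genes passed, and of the shared genes Smug1 in thoracic mutants did not (limma adjusted p = 0.0677). The count test was not run, since whole reads could not be verified in such short tables. Levels under about 10 reads per library, as for Etv4 in thoracic controls, limit the size of those differences.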

Other observations

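Npr3 and Tll1 had identical normalized counts in each of the 3 brachial control libraries, 10.1, 30.2 and 18.3, and different ones in thoracic controls, at 51.0, 70.8 and 43.9 for Npr3 and 39.1, 49.6 and 119 for Tll1. The genes lie on chromosomes 15 and 8 and each rests on 51 reads over the 3 brachial libraries if 1 step is 1 read. This was noticed after the values were seen, and its cause was not tested.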
